A study of Drosophila melanogaster with 2 samples.

Results

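The 10 genes described here encode heat shock proteins and their constitutive relatives in Drosophila melanogaster, and the data give the places near them where Ken was recovered on embryonic chromatin. They were taken as a list of names: Hsp68, Hsp83, Hsp22, Hsp23, Hsp26, Hsp27, Hsc70-3, Hsc70-4, Hsc70-5 and DnaJ-1, out of 13968 protein-coding genes on the main chromosome arms. Ken is a zinc finger DNA-binding repressor. The series is ChIP-seq of whole embryos aged 0 to 24 h from a ken-GFP strain, which expresses Ken fused to eGFP. The description names an anti-GFP precipitation, while the antibody field names ken. It has 1 group of 2 biological replicates. The sex was not recorded, the labels name no heat treatment, and no untagged, mock or input control was analysed here.

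Chaperones bind unfolded proteins and help them fold, or hold them until they can be refolded. The inducible genes are switched on when the heat shock factor, Hsf, binds elements made of inverted GAA and TTC units in their promoters. The cognate genes are expressed without stress in most cells, and some small heat shock genes are also switched on by the moulting hormone ecdysone during normal development. The 10 genes were grouped from general knowledge, and their expression in these embryos was not measured. In this grouping 5 are inducible: Hsp68, a member of the Hsp70 family, and the small heat shock genes Hsp22, Hsp23, Hsp26 and Hsp27. A further 2 are grouped as inducible with a high basal level: Hsp83, the fly Hsp90, and DnaJ-1, a J-domain protein that stimulates Hsp70. The 3 cognate genes are Hsc70-3, the Hsp70 of the endoplasmic reticulum, Hsc70-4, the main Hsp70 of the cytosol, and Hsc70-5, the mitochondrial Hsp70.

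A gene is called bound when the summit of a peak of the conservative list, which was made from both replicates, lay within 1000 bp of any of its transcription start sites (TSSs). By this rule 4 of the 10 genes were bound: Hsp68, Hsp83, DnaJ-1 and Hsc70-5. The same rule called 2400 of 13968 protein-coding genes, 17.2%. Of the inducible genes 1 of 5 was bound, of the inducible genes with a high basal level 2 of 2, and of the cognate genes 1 of 3. None of the 4 small heat shock genes was bound. The groups are too small, and the genes too unlike independent samples, for a test of these counts. Since 1 summit can serve several genes, the count says which start sites lie near a summit and not which gene is regulated.

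The lists of the single replicates held Hsp68, Hsp83 and DnaJ-1, and Hsc70-5 in neither. In the list of replicate 1, 3 of 10 genes were bound against 13.2% of all genes, and in that of replicate 2, 3 of 10 against 16.3%. The other pooled list, which has more peaks, also held these 3 and left out Hsc70-5, against 18.6% of all genes. Of the bound genes Hsp68 lay farthest from its summit, at 929 bp and just inside the distance limit. The nearest gene outside the limit was Hsp22, whose closest conservative summit lay 5640 bp away.

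**Figure D1:**
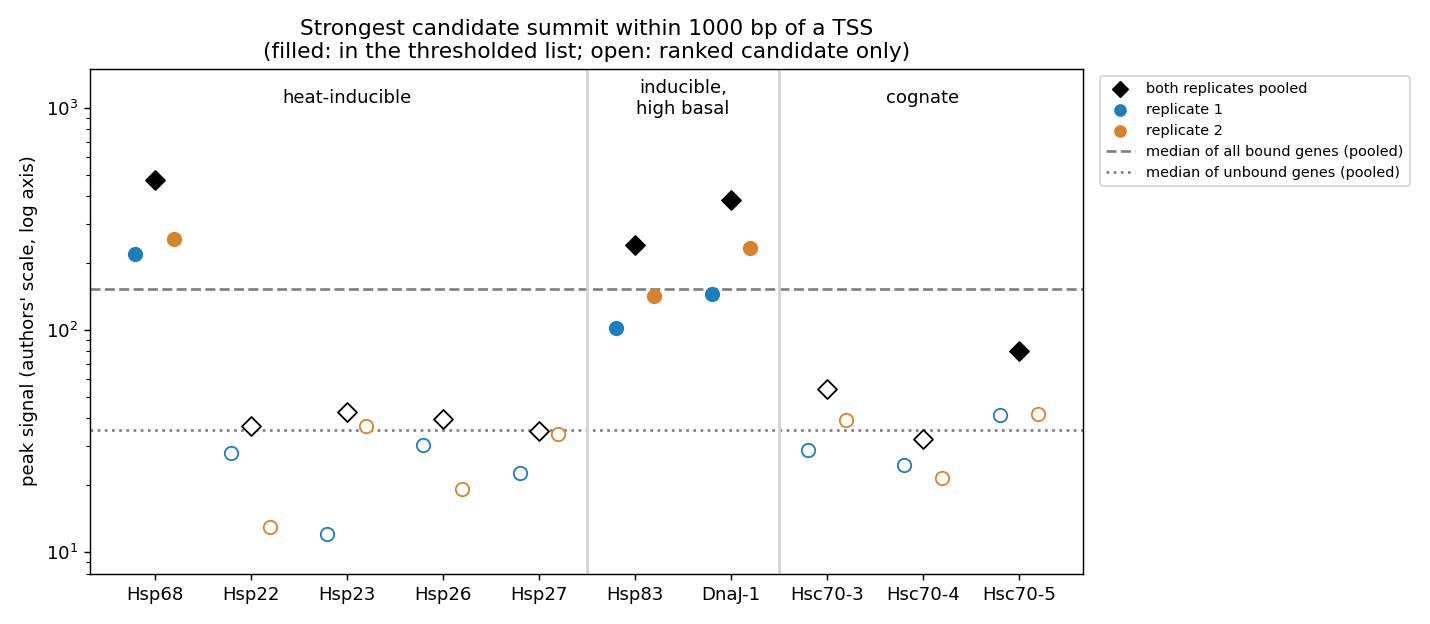
Signal of the strongest candidate summit within 1000 bp of a TSS of each gene, on a log axis, in the list pooled from both replicates (diamonds) and in each replicate (circles), filled where the summit is in the thresholded list. Hsp68, Hsp83 and DnaJ-1 stand above 100 in both replicates, whereas the small heat shock genes, Hsc70-3 and Hsc70-4 stay below 40 in each replicate.

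The sequences under the summits of the 3 genes found in every list are shown because the pentamer CGATA, also read as TATCG on the other strand, lay near every one of them. CGATA is the core of TATCGATA, the DNA replication-related element, which the promoter factor DREF is known to bind. Each window spans 60 bp on both sides of the summit and reads 5' to 3' on the strand of the named chaperone gene, with every CGATA or TATCG in capitals. Sequence and coordinates are those of the release 6 assembly from RefSeq, which has dm6 coordinates. The windows are chr3R:24058179-24058299 (minus strand) for Hsp68, chr3L:5752247-5752367 (minus strand) for DnaJ-1, and chr3L:3192498-3192618 and chr3L:3192698-3192818 (plus strand) for the stronger and the weaker summit of Hsp83.
Hsp68: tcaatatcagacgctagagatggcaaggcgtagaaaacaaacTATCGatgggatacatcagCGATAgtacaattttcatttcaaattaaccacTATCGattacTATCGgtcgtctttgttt
DnaJ-1: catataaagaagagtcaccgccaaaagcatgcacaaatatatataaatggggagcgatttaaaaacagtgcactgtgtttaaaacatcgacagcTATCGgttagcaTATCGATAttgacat
Hsp83, stronger summit: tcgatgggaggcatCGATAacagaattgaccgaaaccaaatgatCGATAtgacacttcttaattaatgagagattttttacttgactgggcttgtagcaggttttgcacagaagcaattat
Hsp83, weaker summit: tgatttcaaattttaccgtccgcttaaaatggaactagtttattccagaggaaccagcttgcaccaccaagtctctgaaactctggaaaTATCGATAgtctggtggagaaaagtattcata

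The 6 conservative summits near the 10 genes all had CGATA within 100 bp, as had 75.3% of the 2031 conservative peaks on the main arms. The 2 peaks of Hsp83 overlap, and so do the 2 of DnaJ-1. Counts out of 6 summits, here and below, are therefore not counts of 6 separate sites. The nearest copy was centred 3 bp from the summit near Hsp68, 14 and 31 bp from the stronger and the weaker summit of Hsp83, 36 bp from the main summit of DnaJ-1 and 40 bp from that of Hsc70-5. Over the 1529 peaks with the word the median distance was 17 bp. The full word TATCGATA was near 2 of the 6 summits, the main one of DnaJ-1 and the weaker one of Hsp83, and near 29.4% of all peaks. Within 50 bp it was near 1 of the 6, against 22.1%. A match is a description of the letters and not a measured binding site. CGATA was taken up as a word after the peaks of this series had been seen to hold it.

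Hsp68 (FBgn0001230, 3R, 24055080 to 24057310, minus strand) had the strongest signal of the 10 genes, but the summit lay at the start of another gene. The peak, on 3R at 24058107 to 24058348, had a pooled signal of 472 and was at 219 in replicate 1 and 256 in replicate 2, and it was in both replicates' lists. The signal is the authors' value, on a scale that is not stated. It ranked 38 of 2087 conservative peaks. The summit was intergenic, 929 bp upstream of the only TSS of Hsp68 and 48 bp from the TSS of SMC1, a subunit of cohesin, which is transcribed in the opposite direction. The summits of the 2 replicates were 10 bp apart.

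Close to the start of Hsp68 itself no candidate of any rank was found. The nearest candidate summit to the TSS lay 857 bp away in the pooled list, 773 bp in replicate 1 and 760 bp in replicate 2. The 250 bp upstream of Hsp68, chr3R:24057311-24057560 on the minus strand, are shown because they hold the elements to which Hsf is known to bind. Capitals mark GAANNTTC or TTCNNGAA, adjoining inverted units of the heat shock element, which occurred 6 times with overlaps.
Hsp68 upstream: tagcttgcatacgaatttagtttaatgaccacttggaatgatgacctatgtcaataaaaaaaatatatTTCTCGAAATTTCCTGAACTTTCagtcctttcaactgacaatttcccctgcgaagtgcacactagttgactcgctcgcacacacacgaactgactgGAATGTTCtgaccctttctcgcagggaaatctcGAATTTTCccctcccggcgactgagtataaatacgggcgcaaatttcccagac
The first 4 overlap in a run that starts at position -182 from the TSS, and the others start at -86 and -53. CGATA was absent from 250 bp before to 50 bp after the Hsp68 TSS, while 4 copies lay within 100 bp of the summit at SMC1. Within 100 bp of that summit there was no heat shock unit pair.

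DnaJ-1 (FBgn0263106, 3L, 5750029 to 5752189, minus strand) was the gene whose own start lay closest to a strong summit. Its main peak, on 3L at 5752194 to 5752457, had a pooled signal of 382 and was at 144 in replicate 1 and 235 in replicate 2, and it ranked 96 of 2087. The summit was 118 bp upstream of the TSS and 666 bp from the nearest TSS of Usp47, a ubiquitin-specific protease transcribed in the opposite direction. The replicates' summits were 3 bp apart. A weaker conservative peak, with a signal of 42.3, had its summit 319 bp upstream of DnaJ-1. Replicate 2 had a thresholded summit there with a signal of 69.2, above the pooled value, and replicate 1 had no candidate within 200 bp. That second peak therefore has a value in 1 replicate only.

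Hsp83 (FBgn0001233, 3L, 3192969 to 3197059, plus strand) had 2 conservative peaks in the gap between its start and that of CG14965, which runs the other way. The stronger, at 3192353 to 3192762, reached 242 in the pooled list, 102 in replicate 1 and 142 in replicate 2. Its summit was 67 bp from the TSS of CG14965 and 411 bp from that of Hsp83. The weaker, at 3192553 to 3192962, had a signal of 179, with 80.0 in replicate 1, and its summit was 211 bp from Hsp83 and 267 bp from CG14965. Replicate 2 had a single summit between the 2 positions, 76 bp from the stronger and 124 bp from the weaker, so its 142 serves for both and is not a separate value for each. Only the weaker of the 2 summits was nearer to Hsp83 than to its neighbour.

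Hsc70-5 (FBgn0001220, 2R, 14252598 to 14256192, minus strand) was the only bound cognate gene and the weakest of the 4. Its peak, at 14255907 to 14256316, had a signal of 80.7, at the 16.6 percentile of the 1731 conservative peaks within 1000 bp of a TSS. The replicates gave 41.5 and 42.0, from candidates in neither thresholded list whose summits lay 170 bp apart. The pooled summit was in the 5' UTR of an Hsc70-5 transcript that starts further upstream, 51 bp before the other TSS, and 381 bp from the TSS of CG8531. Its global irreproducible discovery rate (IDR), which measures how well a peak's rank repeats between sets of reads, was 2.35 as −log10. The lowest value in the conservative list was 2.00, so this peak was closer to the limit than those of the other bound genes, at 3.53 or more.

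**Figure D2:**
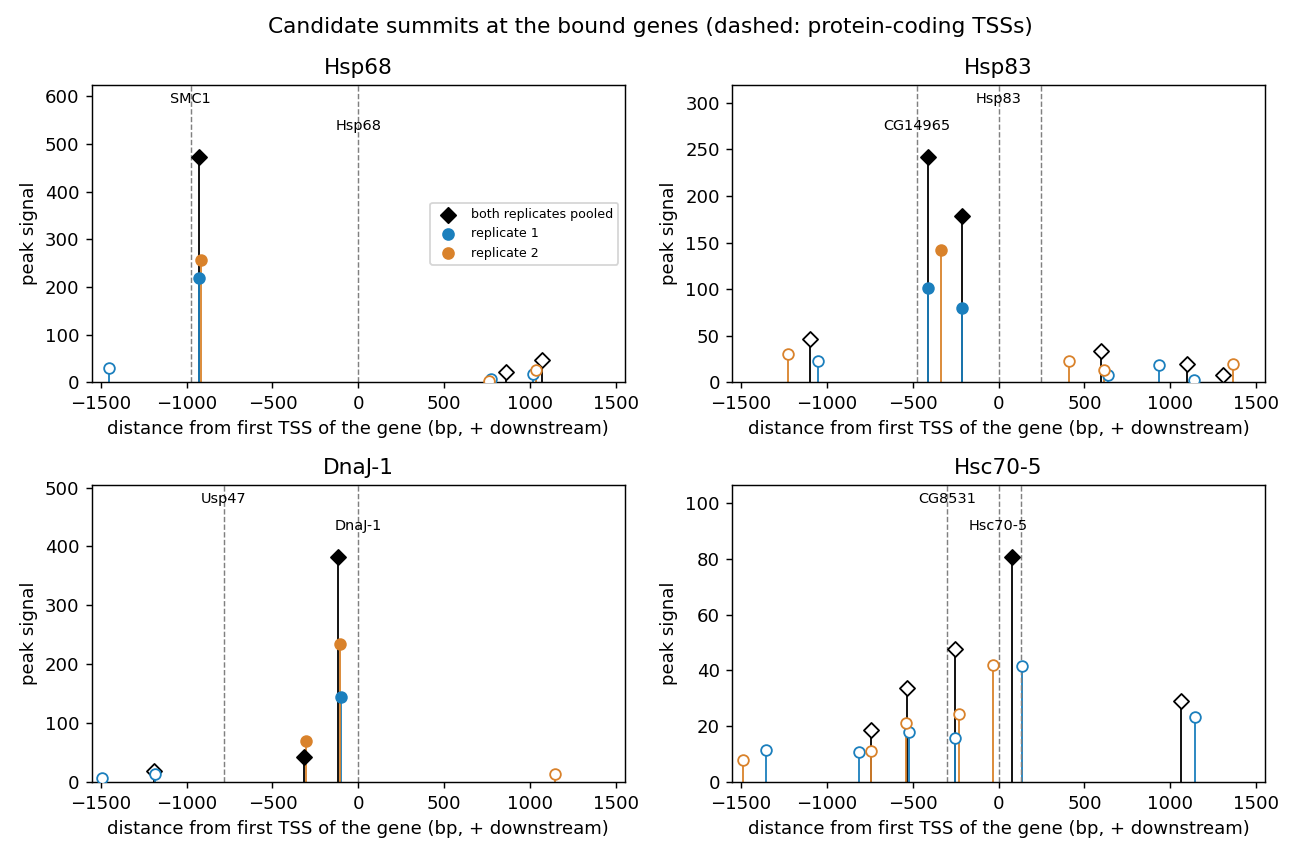
Signal of each candidate summit against its distance from the first TSS of Hsp68, Hsp83, DnaJ-1 and Hsc70-5, with positive distances downstream, for the pooled list and each replicate (filled where thresholded). Dashed lines are protein-coding TSSs, and the peak in the Hsp68 panel stands at SMC1 while that of DnaJ-1 stands at its own TSS.

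The signals of the 2 replicates at the bound genes were compared as a description. The log2 difference of signals, replicate 2 minus replicate 1, at the strongest peak was 0.22 for Hsp68, 0.48 for Hsp83, 0.70 for DnaJ-1 and 0.02 for Hsc70-5. Over 1910 conservative peaks with a value in both replicates the median of this difference was 0.16 with an SD of 0.57 across peaks. All 4 genes lay within 1 SD of that median. Their peaks and the 1910 passed the same IDR threshold, so likeness of the replicates was partly set by that choice. The Hsc70-5 values come from candidates 170 bp apart in neither thresholded list. Because the scale may differ between replicates, no meaning is read from the sign. The median signal of the 4 genes was 312, against 153 over all 2400 bound genes, with Hsc70-5 below that value and the others above it. The strongest summits of Hsp68 and Hsp83 were nearer to SMC1 and CG14965. When a summit counted only for its nearest TSS, the median was 179 over 3 genes, against 145 over 1634 bound genes.

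The small heat shock genes Hsp22, Hsp23, Hsp26 and Hsp27 lie together on 3L, and no thresholded list had a summit there. These genes encode small chaperones, of which Hsp22 is known as mitochondrial and Hsp27 as nuclear. Between 9371931 and 9386694, a stretch of 14764 bp that includes 1000 bp beyond the outer genes, the conservative list, the other pooled list and both replicates' lists had 0 summits. Over the main arms the conservative list had 0.0148 summits per kb. At that density most stretches of this length hold none, so the 0 does not set the cluster apart. Candidates of low rank were present, 22 in the pooled list with signals from 2.82 to 42.6, 17 in replicate 1 and 15 in replicate 2. Their density in the pooled list was 1.49 per kb, against 1.08 per kb over the main arms. The nearest conservative summits were 4640 bp from the edge of this stretch on the left, at CG4452 with a signal of 231, and 12553 bp on the right, at CG4080 with 98.3.

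The highest candidates near the 4 small heat shock genes lay in the middle of the range of unbound genes in the pooled list and differed between replicates. Hsp22 (FBgn0001223, 9372931 to 9374964) had a highest candidate of 36.8 in the pooled list, 27.9 in replicate 1 and 13.0 in replicate 2. Hsp23 (FBgn0001224, 9381882 to 9382765) had 42.6, with 12.03 and 36.8. Hsp26 (FBgn0001225, 9376418 to 9377427) had 39.8, with 30.3 and 19.3. Against the highest candidates of the 10073 unbound genes that had any, whose median was 35.3, the pooled values of Hsp22, Hsp23 and Hsp26 stood at the 54.2, 68.4 and 62.1 percentiles. Hsp27 (FBgn0001226, 9384063 to 9385694) had 35.2, with 22.8 and 33.9, at the 49.7 percentile. Ranked within each replicate, Hsp22 stood at the 75.5 percentile in replicate 1 and 20.3 in replicate 2, and Hsp26 at 82.6 and 54.97. The order was opposite at Hsp23, at the 10.3 and 94.7 percentiles, and at Hsp27, at 55.4 and 92.8. The highest candidates of a gene need not be at the same place in both replicates. The other genes of the cluster were also unbound: Hsp67Ba had a highest pooled candidate of 38.7, CG4456 (Hsp67Bb) 36.8, CG4461 33.8 and Hsp67Bc 18.0. Hsp22 and CG4456 overlap and share their highest pooled candidate.

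**Figure D3:**
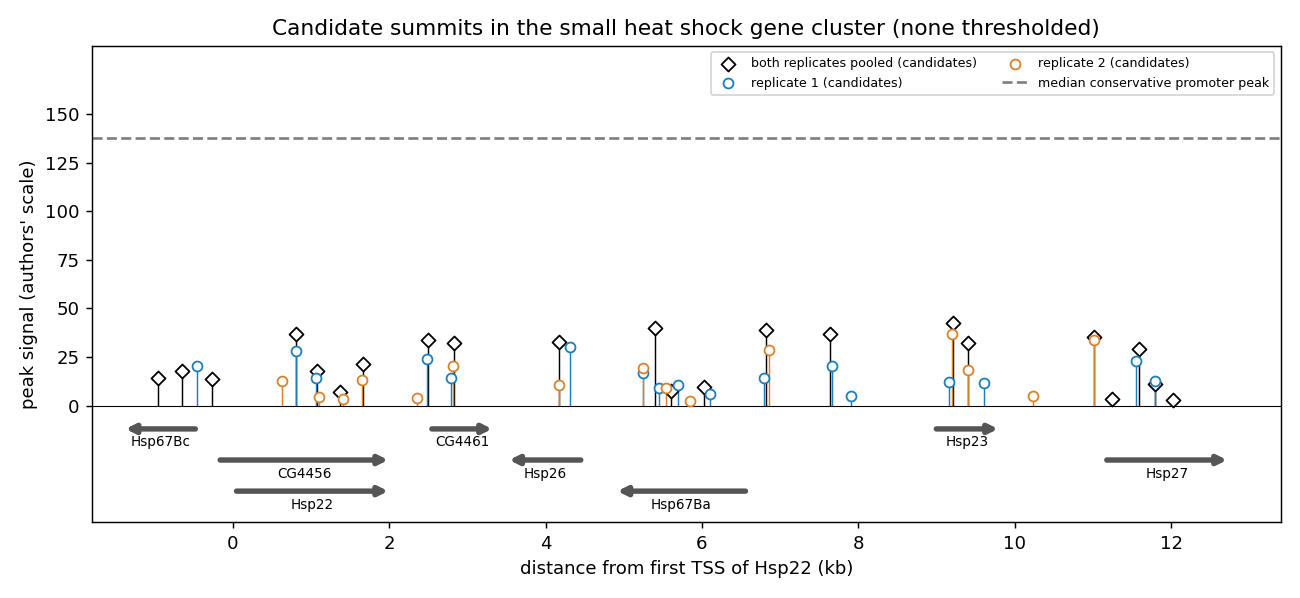
Candidate summits across the small heat shock cluster by distance from the first TSS of Hsp22, in kb, for the pooled list and each replicate, above arrows for the protein-coding genes. No candidate exceeds 42.6, and the dashed line marks the median of conservative peaks within 1000 bp of a TSS, 138.

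The upstream part of Hsp23 is shown because its promoter holds CGATA more often than those of the other 9 genes and yet had no thresholded summit. The 250 bp upstream of its TSS, chr3L:9381632-9381881 on the plus strand, hold 3 copies, in capitals, starting at positions -213, -155 and -43 from the TSS. A further copy starts at position 30 and is not printed.
Hsp23 upstream: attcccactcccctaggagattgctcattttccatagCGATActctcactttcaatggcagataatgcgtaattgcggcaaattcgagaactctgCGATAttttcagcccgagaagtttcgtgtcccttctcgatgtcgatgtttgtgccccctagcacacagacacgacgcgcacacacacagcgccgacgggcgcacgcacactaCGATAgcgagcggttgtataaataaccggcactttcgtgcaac
From 250 bp before to 50 bp after a TSS, 983 protein-coding genes had 4 or more copies of CGATA on either strand at some TSS, and 749 of them, 76.2%, were bound. The share was 36.2% with 2 or 3 copies, 9.39% with 1 and 4.33% with none, where a TATCGATA counts as 2. Because CGATA was taken up from the peaks of this series, a rise of the bound share with its copies was partly set by that choice. Hsp23 was among the 983 genes with most copies and unbound, as were all of the 983 outside the 749. Hsp68 and Hsp27 had none, and Hsp68 was bound through the summit at SMC1. Hsp83 and DnaJ-1 had 2 and 3 copies. Hsp22 was unbound and had 2 at its upstream TSS and none at its downstream TSS. Hsp26, Hsc70-3, Hsc70-4 and Hsc70-5 had 1 each.

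Heat shock unit pairs were found at bound and unbound genes alike. GAANNTTC or TTCNNGAA, on either strand, was present from 250 bp before to 50 bp after a TSS of 8 of the 10 genes, all but Hsp27 and Hsc70-5, against 19.9% of all protein-coding genes. From 500 bp before a TSS all 10 genes held it, against 32.4%. It was most frequent at Hsp68, with 6 copies at its own TSS, some of them overlapping. Hsc70-4 had 4, Hsp26 had 3, and Hsp22 and Hsp23 had 2 each. Those of Hsp22 were at its downstream TSS, not at the upstream TSS that holds CGATA. Within 100 bp of a summit it lay in 2 of the 6 windows, at the stronger summit of Hsp83 and at the weaker one of DnaJ-1, and in 11.5% of all conservative peaks. Within 50 bp it lay in 1 of the 6, against 5.12%.

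The cognate genes Hsc70-3 and Hsc70-4 had no thresholded peak in any list. Hsc70-3 (FBgn0001218, X, 11801696 to 11807117, minus strand) has 4 annotated TSSs and a highest candidate 1 bp from one of them, with a signal of 54.4. Replicate 1 had 28.9 at another place and replicate 2 had 39.2. The pooled value was at the 86.5 percentile of unbound genes, the highest among the 6 unbound members. Hsc70-4 (FBgn0266599, 3R, 15242687 to 15246614, plus strand) has 6 TSSs and reached 32.1, with 24.6 and 21.6, at the 40.3 percentile. The closest summit of the conservative list lay 12418 bp from a start of Hsc70-3 and 17169 bp from one of Hsc70-4. Embryos of all stages and cell types were mixed, so recovery in few cells and weak recovery in many cannot be told apart for these low values.

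All 4 bound genes have a gene transcribed away from them that starts within 1000 bp upstream, which the choice of genes did not use and which was looked for after the bound genes were known. Such a protein-coding TSS on the opposite strand is called a divergent partner. Hsp68 had SMC1 at 977 bp, DnaJ-1 had Usp47 at 784 bp, Hsp83 had CG14965 at 478 bp and Hsc70-5 had CG8531 at 301 bp. These partners were bound as well, through the same peaks. Among the unbound genes, Hsp22 had Hsp67Bc at 434 bp and Hsc70-4 had tefu, the fly ATM kinase, at 451 bp, and neither partner was bound. Hsp23, Hsp26, Hsp27 and Hsc70-3 had no such partner. So 4 of 6 members with a divergent partner were bound and 0 of 4 without, against 32.2% of 5052 and 8.69% of 8916 protein-coding genes. The split of the members depended on the distance. With a limit of 500 bp Hsp68 and DnaJ-1 have no partner, and 2 of 4 members with a partner and 2 of 6 without were bound, against 33.7% of 3815 and 11% of 10153 protein-coding genes. A summit between 2 divergent starts can count for both genes, and the part this plays in these shares was not tested.

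Of 63 further chaperones and co-chaperones, 22 were bound, 34.9%, against 17.2% of all protein-coding genes. The lists of replicates 1 and 2 held 18 and 20 of the 63, not all of them among the 22, against 13.2% and 16.3% of all protein-coding genes. At a global IDR of 0.001 or lower 15 of the 63 were bound, against 9.29%. The median signal of the 22 was 153, the same as over all bound genes to 3 digits. The set was listed by family from general knowledge, and no test was made of it. Of the CCT chaperonin, the ring that folds actin and tubulin, 5 of 8 subunits were bound, with 4 in the list of replicate 1 and 3 in that of replicate 2. CCT5, at 38.7, was in neither replicate's list nor in the other pooled list. CCT7 had a signal of 294 with 137 and 151 in replicates 1 and 2, and CCT1 had 271 with 79.6 and 181. CCT8 had 241, with a summit nearer to the start of CG30349. Of prefoldin, which passes substrates to CCT, 4 of 6 subunits were bound, in both replicates' lists as well, with mgr at 204, Pfdn6 at 154 and Pfdn5 at 153. The Pfdn6 summit was nearer to Su(z)12.

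Among co-chaperones 6 of 13 were bound, 46.2%, against 17.2% of all protein-coding genes. The lists of replicates 1 and 2 held 4 and 5 of the 13, against 13.2% and 16.3% of all genes. Of the 6, stv was in neither replicate's list. STUB1, a ubiquitin ligase that works with Hsp70 and Hsp90, had 313 with 146 and 170 in the replicates. Roe1, the mitochondrial GrpE, had 152. The 941 counted for Dpit47, an Hsp90 partner, belongs to a summit at -954 bp from its TSS and nearer to Adf1. Of J-domain proteins 3 of 11 were bound, 27.3%, P58IPK at 237, mrj at 219 and Sec63 at 139. The lists of replicates 1 and 2 held 2 and 4 of the 11, and Sec63 was not in that of replicate 1. In the Hsp90 family Trap1, the mitochondrial member, was bound at 182 with a summit nearer to Bap170. Hsp60A, the mitochondrial chaperonin, had 141. Of 8 further small heat shock proteins 1 was bound, CG14207 at 145, which is 12.5% and near the share of all genes for so few. For 17 of the 22 the summit's nearest TSS was the gene's own, against 1557 of all 2400 bound genes, 64.9%, and among the 4 bound members this held for the strongest summit of DnaJ-1 and Hsc70-5.

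The remaining Hsp70 genes and Hsf were mostly without peaks. Hsp110, which exchanges the nucleotide of Hsp70, was bound at 405, with 192 and 218 in the replicates, 45 bp from its TSS. It was the only one bound of 9 further genes of the Hsp70 family, 11.1%, against 17.2% of all protein-coding genes. The 6 near-identical copies of Hsp70 itself were unbound. Hsp70Ba had a candidate of 120 that did not pass, with 88.3 in replicate 1 and 31.4 in replicate 2, Hsp70Bb had 51.04 and Hsp70Ab 24.4. Hsp70Aa, Hsp70Bbb and Hsp70Bc had no candidate within 1000 bp in any ranked list. How reads from such copies were placed is unknown, so these values are uncertain. Hsf had a highest candidate of 29.3 in the pooled list and was unbound.

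**Figure D4:**
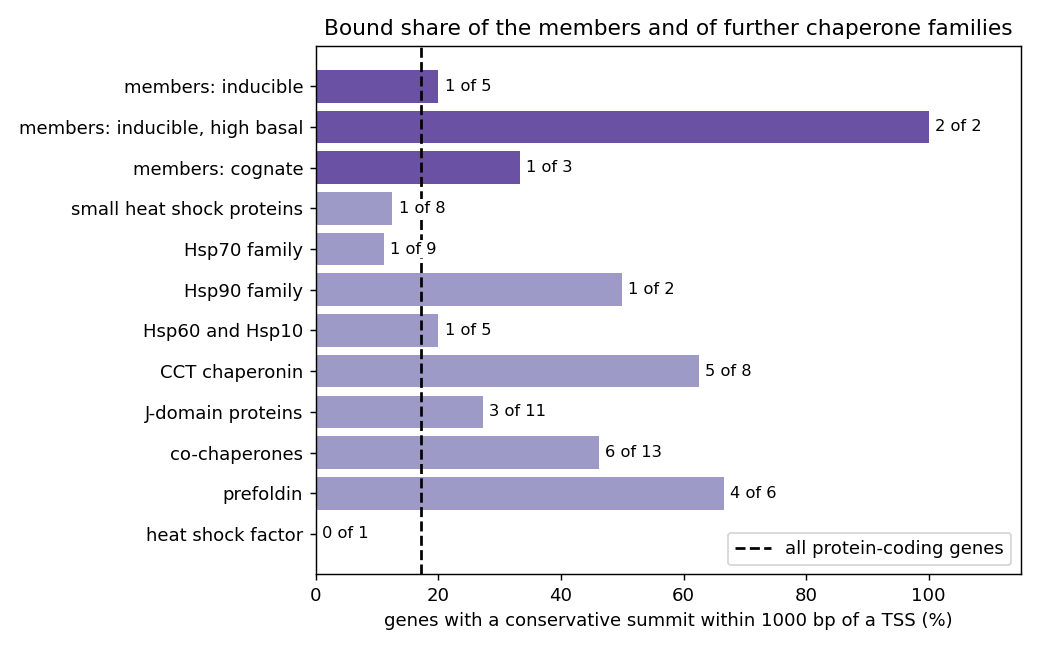
Percentage of genes with a conservative summit within 1000 bp of a TSS in the 3 groups of members (dark) and in further chaperone families (light), with counts beside the bars. The dashed line is the share over all protein-coding genes, 17.2%, and prefoldin and CCT, with 4 of 6 and 5 of 8 genes, lie above it. The small heat shock proteins, with 1 of 8, and the further Hsp70 family, with 1 of 9, are near it. A single further bound gene would lift either above the line.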

How the data were processed

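The data were ChIP-seq peak lists of 2 biological replicates. The authors deposited ranked and thresholded lists on dm6, for each replicate and for both together, per the labels and the notes filed with the samples. The sources used here do not state the aligner or peak caller, and the read depth is unknown, so no counting interval can be given. Peak signal, the deposited measure of height, has no stated scale, and whether the replicates share one is unknown. The deposited score is the IDR score, at most 1000, and served with the coordinates to match lists. The deposited −log10 of the global IDR is at most 5 and was read from the ranked lists. In the pooled ranked list 8 columns with values of single inputs carry no label and were not used.

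Gene models came from Ensembl release 115 and sequence from the RefSeq release 6 assembly, and no peak ended beyond its arm. Summits were assigned to every protein-coding TSS within 1000 bp on the main arms, with Python 3.11.15 and pandas 2.3.3, and the assignment was checked on planted summits. A replicate's signal at a pooled summit is that of its nearest candidate within 200 bp. All genes on the list are named whatever their values. Of further chaperone families up to 3 bound genes with the highest signal are named, plus Hsf, the Hsp70 genes, the small heat shock cluster and genes sharing a summit with a member. The members and lists were chosen with earlier results of these data known. With 1 group and no control, no test was made. Alternatives were other lists, windows, TSS rules and motif windows.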

Additional observations from a re-analysis of the deposited data

How the results depend on the processing

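The count of bound members was 4, and it stayed at 3 or 4 in all alternatives except a window of 200 bp, where it was 2. Hsp68 was lost within 200 and 500 bp and when a summit counted only for its nearest TSS, which left 0 bound genes of the inducible group, and Hsp83 was lost within 200 bp, which left 1 of its group. With the nearest TSS only, the median signal of bound members was 179. Hsc70-5 was lost in the other pooled list, in the list of either replicate alone, at a global IDR of 0.001 or lower and in the stronger 50% of peaks, so 0 cognate genes were bound in each. Counting Hsp83 and DnaJ-1 as inducible gave 3 bound inducible genes, and counting them as cognate gave 3 bound cognate genes. The bound share of all protein-coding genes moved as well. By the main rule it was 17.2%, at a global IDR of 0.001 it was 9.29%, and in the stronger 50% of peaks 10.7%. It was 12.8% within 200 bp, 15.4% within 500 bp, 20.3% within 2000 bp and 11.7% with the nearest TSS only. The small heat shock cluster had 0 summits in every thresholded list and setting run, while the ranked lists held candidates there. Settings that only drop peaks or change the TSS window or rule could not alter this 0, so only the other lists were a check. Divergent partners within 500 bp, a limit chosen after seeing the data, were found for 4 of the 10 genes, of which 2 were bound, and 2 of the genes without one were bound. No paired analysis was possible because the series has 1 group.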

Other observations

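Other words at the 10 genes are given as counts. From 250 bp before to 50 bp after a TSS, TATAAA on either strand was present at all 10 genes, against 51.2% of all protein-coding genes. GAGAG, a word bound by the GAGA factor, was present at 6 of 10, with 7 copies at a TSS of Hsc70-3, 6 at Hsp26 and 5 at Hsp22, and none at Hsp68, Hsp83, DnaJ-1 or Hsp27, against 36.2% of all genes. Of these 6, 1 was bound, Hsc70-5, which is near the 17.2% of all protein-coding genes. The bound share of all genes with GAGAG was not counted. GAGAG lay within 100 bp of 2 of the 6 member summits, against 19.1% of all conservative peaks, and within 50 bp of 1, against 9.7%. The consensus of Ken, GNGAAAG or GNGAAAT, was present at 7 of 10 against 40.2%, with 5 copies at the TSS of Hsp68, whose nearest candidate in any ranked list was 760 bp away. It lay within 100 bp of 3 of the 6 member summits against 23.2% of all conservative peaks, but within 50 bp of 1 of 6 against 12.6%. Within 100 bp it was at the stronger summit of Hsp83, the summit of Hsc70-5 and the weaker summit of DnaJ-1. It was absent there from the summit counted for Hsp68, the main summit of DnaJ-1 and the weaker one of Hsp83. From 500 bp before a TSS, GAGAG was present at 8 of 10 genes against 50.2% and the Ken consensus at 10 of 10 against 58.6%. Motif 1, GGTCACACT, was at 0 of 10 against 6.77%. Overlapping copies were counted separately, and genes with more TSSs have more windows.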
